A study of Mus musculus with 6 samples.

Results

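The genes described here are those on which the 3 annexin A10 knockout (A10KO) libraries of a mouse melanoma cell line disagreed with each other. They were chosen by a rule on the measured values themselves. A gene was a member if 1 A10KO library differed from each of the other A10KO libraries, in the same direction, by at least 4-fold, and if its highest A10KO library reached at least 5 TPM (the abundance of a gene's transcripts corrected for their length and given relative to the library's total). Differences were taken on log2(TPM + 1), where a 4-fold difference is a log2 difference of 2. Of the 51912 genes in the table, 10067 reached 5 TPM in an A10KO library, and 235 of these were members (2.33%). Because the rule used these values, the members' levels among the A10KO libraries are a description and no test was made on them. The library that stood apart was always a single one, without a replicate.

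RNA was sequenced from B16F10, a pigmented mouse melanoma line, in 3 wild-type libraries (WT, replicates 1, 2 and 3) and 3 libraries labelled ANXA10-/- (A10KO, replicates 1, 13 and 14). No treatment or time point is given, and both groups carry the same B16F10 background. The submitters describe 2 lines, a wild-type and a knockout one, and whether the numbers 1, 13 and 14 stand for separate knockout clones, cultures or preparations is not stated. The WT libraries serve only as a reference range, and A10KO was not compared with WT by any test. Depth is unknown, because TPM keeps no record of the number of reads. The samples are bulk RNA, in which fewer cells of a kind and less RNA per cell cannot be told apart. Some zeros in the table may be failed estimates, since mt-Atp6, a subunit gene of the mitochondrial ATP synthase, was listed at 0 in all 6 libraries, so a value of 0 is given only as listed.

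As background, melanocytes arise from the neural crest, as do Schwann cells, and their pigment program is driven by regulators such as MITF and SOX10. A tumour cell line is not uniform: its cells can differ in chromosome content and in which genes are active, and lines grown from different cells of it can keep such differences. Knockout lines are usually made by cutting a gene and growing up single edited cells.

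Melanocyte markers were high in all 6 libraries. Tyrp1, a melanin synthesis enzyme, stood at 2430.3, 3714 and 3815 TPM in A10KO replicates 1, 13 and 14 and at 3008, 2871 and 3068 in WT replicates 1, 2 and 3, the order used for all values below. Sox10 was at 299.9, 254 and 375 TPM in A10KO and 318, 269.9 and 312 in WT. The leukocyte genes Ptprc, Cd3e and Tyrobp and the endothelial gene Cdh5 were at or below 0.01 TPM throughout. Pecam1, another endothelial gene, reached 0.59 TPM in its highest library. The fibroblast genes Col1a1, Dcn and Pdgfra reached 2.46, 0.16 and 0.41 TPM, and the keratinocyte genes Krt5 and Krt14 reached 0.16 and 0.34. Levels of the targeted gene could not verify the genotypes: Anxa10 was listed at 0 in every library, WT included. Of the other genes in the study's title, Prkd1, a protein kinase D gene, was also listed at 0 in every library, and Trim41, a ubiquitin ligase gene, stood at 36.8, 22.02 and 21.1 TPM in A10KO and 24.9, 26.1 and 20.4 in WT. Of all TPM, 7.93% in A10KO replicate 1, 14.7% in replicate 13 and 7.37% in replicate 14 fell on mitochondrial genes, against 6.32% to 6.56% in WT. Between 11889 and 12236 genes reached 1 TPM in each library.

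Nek1 and Col19a1, the genes by which these differences were first marked, fell short of the rule. Nek1, which encodes a kinase of the primary cilium and of DNA repair (ENSMUSG00000031644, GRCm38 chromosome 8, 60993195 to 61131346), stood at 165, 634 and 199 TPM in A10KO and 124, 137 and 120.4 in WT. A10KO replicate 13 was the high library, 3.18 times the next A10KO library, and all A10KO libraries were above the WT range. Col19a1, a collagen gene (chromosome 1, 24261890 to 24587472), stood at 2138, 4599 and 1835 TPM and 1512, 1488 and 1392, again highest in A10KO replicate 13, at 2.15 times the next. Just inside the 4-fold limit lay Slc7a8, an amino acid transporter gene higher in replicate 13 by a log2 difference of 2.004, and Adamts6 and Pagr1a, lower in it by 2.01 and 2.02. Just outside lay As3mt and Mageh1, lower in replicate 1 by 1.996 and 1.97, and Atp7a, higher in replicate 13 by 1.97.

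All 3 A10KO libraries had members in both directions. Replicate 1 stood apart upward for 47 genes (0.467% of those considered) and downward for 33 (0.328%). Replicate 13 stood apart upward for 44 (0.437%) and downward for 58 (0.576%), and replicate 14 upward for 43 (0.427%) and downward for 18 (0.179%). These counts add up to 243, because 8 genes had all 3 libraries at least 4-fold from each other and count under both their low and their high library. Pair by pair, 225 genes were at least 4-fold apart between replicates 1 and 13 (2.24%), 174 between 1 and 14 (1.73%) and 220 between 13 and 14 (2.19%). The median absolute log2 difference of a gene was 0.40, 0.26 and 0.34 for these pairs.

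The same rule on the WT libraries found 154 of 9832 genes (1.57%), a smaller share, and the difference lay in protein-coding genes. WT replicate 1 stood apart upward for 50 genes (0.509%) and downward for 21 (0.214%), WT replicate 2 for 37 (0.376%) and 12 (0.122%), and WT replicate 3 for 32 (0.325%) and 7 (0.0712%). Among protein-coding genes the rule found 150 of 9549 in A10KO (1.57%) and 54 of 9326 in WT (0.579%). Among all other genes it found 85 of 518 in A10KO (16.4%) and 100 of 506 in WT (19.8%). Between WT pairs, 133, 123 and 90 genes were 4-fold apart (1.35%, 1.25% and 0.915%), with median absolute log2 differences of 0.20, 0.085 and 0.18. The protein-coding share was higher in A10KO than in WT under each alternative pseudocount, minimum level, fold and scaling computed. It ran from 0.503% against 0.257% with a pseudocount of 5 to 7.71% against 1.57% at a 2-fold limit.

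**Figure D1:**
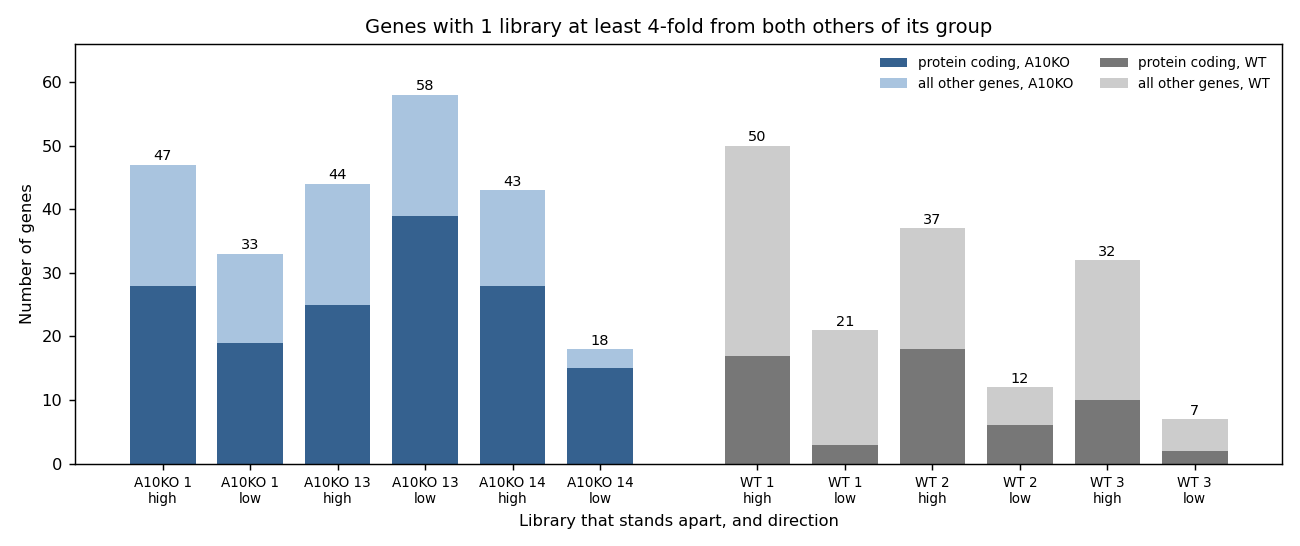
Number of genes (vertical axis) for which the named library, on the horizontal axis, was at least 4-fold above (high) or below (low) both other libraries of its group. Dark bars are protein-coding genes and light bars all others. The A10KO bars run from 18 to 58 genes, and their protein-coding parts, 15 to 39, compare with 2 to 18 in WT.

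Genes higher in A10KO replicate 1 included a germ cell gene, membrane proteins and enzymes. Tex101, a glycoprotein gene of germ cells (ENSMUSG00000062773, chromosome 7, 24668007 to 24676675), stood at 21.3, 0 and 0 TPM in A10KO and 0.49, 0.06 and 0.40 in WT. Ankk1, which encodes a protein kinase, was at 20.1, 0 and 0 TPM in A10KO and was listed at 0 in all WT libraries. Pde8a, a cyclic AMP phosphodiesterase gene, was at 15.9, 0.18 and 0.05 TPM and 0, 0.03 and 0.06 in WT. For these 3 genes replicate 1 alone was above 1 TPM of all 6 libraries. Wdr44, on the X chromosome, encodes a partner of the membrane-traffic protein RAB11 and stood at 48.7, 3.11 and 1.27 TPM in A10KO and 0.86, 1.68 and 1.12 in WT. Ece1, the endothelin-converting enzyme gene, was at 58.6, 7.0 and 2.21 TPM against 1.74, 1.83 and 1.78, and Xylt1, whose enzyme starts the sugar chains of proteoglycans, at 31.9, 4.44 and 1.66 against 0.84, 0.95 and 0.77. Kcns3 encodes a modulatory subunit of potassium channels and stood at 48.8, 4.28 and 2.69 TPM and 5.48, 5.54 and 5.04 in WT. In all 4 genes replicate 1 lay far above the other 5 libraries, none of which passed 7.0 TPM.

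For Emp1, Hyal1 and S100a4, replicate 1 was the A10KO library nearest to WT. Emp1, which encodes a tetraspan membrane protein, stood at 49.8, 3.98 and 2.36 TPM in A10KO and 26.3, 37.99 and 30.04 in WT. Hyal1, a hyaluronidase gene, was at 32.6, 3.93 and 4.49 TPM against 14.2, 20.4 and 12.8. S100a4, a calcium-binding protein gene linked to metastasis, was at 6.09, 0.26 and 0 TPM against 3.39, 5.26 and 2.91. In these genes replicates 13 and 14 were below every WT library, and replicate 1 was above every one. Hyal1 overlaps Nat6 and Hyal3, and Hyal1 and S100a4 share 63.4% and 58.1% of their 31-base words with other genes, so their reads are hard to place. The most abundant member of the set was Tmem94, a membrane protein gene, at 124, 27.4 and 20.7 TPM and 21.1, 25.8 and 22.9 in WT. Dkk3, a secreted protein of the Dickkopf family, was at 7.68, 0.02 and 0.02 TPM against 0.70, 0.97 and 0.88. Of the 47 genes, 28 were protein coding, the median log2 difference from the next library was 3.15, and in 17 both other A10KO libraries were listed at 0.

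Genes lower in A10KO replicate 1 included a myelin gene, a tubulin and cell-surface proteins, and in 22 of the 33 this library was also farthest from WT. Mbp, the gene of myelin basic protein of glia, stood at 39.7, 269.9 and 376 TPM in A10KO and 423, 365 and 399.8 in WT. Tuba4a, an alpha-tubulin gene, was at 4.27, 87.4 and 57.1 TPM against 53.6, 46.9 and 52.7. App, the amyloid precursor protein gene (ENSMUSG00000022892, chromosome 16, 84949685 to 85173766), was at 9.41, 76.98 and 59.8 TPM against 52.7, 65.5 and 57.2. Mertk encodes a receptor tyrosine kinase for the uptake of dying cells and stood at 9.96, 62.2 and 77.3 TPM against 68.4, 84.2 and 72.3. Cyba, a subunit of the NADPH oxidase, was at 5.91, 42.5 and 62.1 TPM against 59.3, 58.8 and 60.03. In these 5 genes replicate 1 was below all other libraries. Tuba4a overlaps Stk16 and shares 51.8% of its 31-base words with other genes.

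Further genes low in replicate 1 serve calcium release, pigment and detoxification. Itpr2, a calcium channel gene of the endoplasmic reticulum, was at 2.34, 25.9 and 31.7 TPM in A10KO and 23.1, 40.1 and 28.5 in WT. Oca2, which encodes a transporter of the melanosome, was at 0.40, 4.85 and 11.3 TPM against 8.41, 11.4 and 8.05, and Cbr3, a carbonyl reductase gene, at 0.28, 6.55 and 7.83 against 10.8, 7.9 and 12.4. Replicate 1 was the lowest of the 6 libraries in each. Mest, an imprinted gene, stood at 1.23, 8.51 and 11.4 TPM in A10KO and 3.89, 6.76 and 4.99 in WT, so that here the other A10KO libraries were above the WT range. Slc6a20a, a proline transporter gene, had the largest difference of the set, at 0, 28.2 and 22.9 TPM, but the WT libraries also ranged widely, at 0, 34.7 and 8.52. Oca2 and Mest were no longer members with quantile, trimmed-mean or median-of-ratios scaling. Of the 33 genes, 19 were protein coding, and replicate 1 was listed at 0 in 11.

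Genes higher in A10KO replicate 13 included Ppargc1a, which encodes PGC-1alpha, a coactivator of mitochondrial biogenesis. Ppargc1a (ENSMUSG00000029167, chromosome 5, 51454250 to 51567726) stood at 14.3, 117 and 10.2 TPM in A10KO and 16.1, 25.7 and 17.7 in WT. Replicate 13 was the high library, and the other A10KO libraries were just below the WT range. Ccdc40, a gene for the assembly of dynein arms in motile cilia, was at 17.9, 217 and 33.8 TPM against 26.5, 23.5 and 27.5. Acsbg1, a long-chain acyl-CoA synthetase gene, was at 4.0, 67.6 and 10.6 TPM against 44.5, 48.2 and 50.6. For Acsbg1 it was replicates 1 and 14 that lay far from WT, and replicate 13 was above it. Mitochondrially encoded transcripts were also at their highest in replicate 13, at 14.7% of TPM against 7.93% and 7.37%, and the part of this in the set was not tested. With those transcripts removed and the rest rescaled, 65 genes stood apart upward in replicate 13 and 59 downward.

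Several genes stood at 1.31 TPM or less in every library other than replicate 13. Dlk1, an imprinted gene of the Notch ligand family, stood at 0.24, 13.4 and 0 TPM in A10KO and was listed at 0 in all WT libraries. Sez6l, a neuronal membrane protein gene, was at 0, 7.58 and 0.01 TPM against 0.12, 0.32 and 0.21 in WT, and Prr14l at 0.10, 9.44 and 0 against 0.11, 0.12 and 0.13. Hba-a2, an alpha-globin gene, was at 0, 12.3 and 0 TPM against 0.71, 1.28 and 0, but shares 91% of its 31-base words with other genes, and the alpha-globin copy Hba-a1 stood at 2.06, 10.2 and 0 TPM. Gfap, an intermediate filament gene of glia, was at 0.19, 5.33 and 0.08 TPM against 0.32, 1.31 and 0.88. Replicate 13 was the highest of all 6 libraries in each of these genes. Fam131c stood at 1.24, 13.3 and 0.58 TPM in A10KO and 1.18, 1.35 and 1.57 in WT, again highest in replicate 13. Of the 44 genes, 25 were protein coding, and in 43 replicate 13 was above the WT range.

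The set lower in A10KO replicate 13 was the largest and held the 2 members with the highest level, Gabrb1 and Wdpcp. Gabrb1, which encodes the beta-1 subunit of the GABA-A receptor (ENSMUSG00000029212, chromosome 5, 71658113 to 72149037), stood at 589, 16.96 and 674 TPM in A10KO and 615, 476 and 637 in WT. Obox3, an oocyte homeobox gene (chromosome 7, 15479825 to 15639902), was at 456, 0.04 and 254 TPM against 227, 113 and 190.4. Wdpcp, a gene for planar cell polarity and ciliogenesis, was at 589.9, 40.98 and 177 TPM against 233, 279 and 338. For all 3, replicate 13 was below every other library. Obox3 had the largest difference of any member, 7.94 on the log2 scale, and shares 36.7% of its 31-base words with other genes. Wdpcp overlaps Mdh1, and it was not a member once mitochondrial transcripts were removed.

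Other genes of this set stood below 1 TPM in replicate 13 and higher in all other libraries. Prkcb, the gene of protein kinase C beta (chromosome 7, 122288751 to 122634402), stood at 36.4, 0.02 and 20.9 TPM in A10KO and 15.9, 25.9 and 29.3 in WT. Bfsp2, a filament gene of the eye lens, was at 146, 0.60 and 91.7 TPM against 99.2, 68.8 and 90.5. Agbl1, which encodes an enzyme that removes glutamates from proteins, was at 32.9, 0 and 18.6 TPM against 17.4, 5.64 and 11.6. Nfatc2, a calcium-regulated transcription factor gene, was at 9.29, 0.02 and 10.3 TPM against 8.7, 8.85 and 8.26. The remaining 5 libraries each held at least 5.64 TPM of these 4 genes. Fam174b, a membrane protein gene, was at 67.3, 0.75 and 51.1 TPM against 47.6, 40.2 and 44.3, and D10Jhu81e at 43.4, 0.16 and 27.6 against 30.1, 32.4 and 33.1. Mmel1, a metallopeptidase gene, was at 42.4, 0.13 and 19.9 TPM against 12.9, 8.96 and 3.79.

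Further genes low in replicate 13 include some for secreted proteins, receptors and channels, named here one by one. Spp1, which encodes osteopontin, stood at 10.2, 0.70 and 10.1 TPM in A10KO and 16.4, 22.1 and 20.01 in WT, and its neighbour Sparcl1, a matricellular protein gene, at 15.6, 3.03 and 42.5 and 52.9, 70.1 and 57.9. Spp1 and Sparcl1 lie between 104079111 and 104441050 on chromosome 5. Lgals3bp, a secreted partner of galectin-3, was at 88.6, 17.4 and 74.4 TPM against 169, 184 and 183. For these 3 genes every A10KO library was below the WT range, and replicate 13 was the lowest. Cdh13, a cadherin held by a lipid anchor, was at 8.07, 0.18 and 11.2 TPM against 8.3, 11.5 and 8.57. Trpc6, a cation channel gene, was at 7.29, 0.51 and 18.1 TPM against 8.6, 8.57 and 10.2, and Gjb2, the gap junction gene of connexin 26, at 10.3, 1.23 and 32.6 against 14.3, 16.96 and 14.1. Epha5, an ephrin receptor gene, was at 54.4, 12.6 and 69.4 TPM against 62.4, 37.6 and 39.2. Gstp2, a glutathione transferase gene, was at 447, 68.5 and 354 TPM against 491, 577 and 500.1, with 78.1% of its 31-base words shared. In these 5, replicate 13 was the lowest of all 6 libraries. Hist2h2aa2, a replication-dependent histone gene, was at 5.44, 0 and 8.88 TPM against 9.87, 13.3 and 10.2, and 100% of its words are shared with other genes. Lgals3bp, Sparcl1 and Epha5 were not members once mitochondrial transcripts were removed.

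Neighbouring serum amyloid A genes, 3 in number, were low together in replicate 13. These genes encode acute-phase apolipoproteins and lie between 46711998 and 46754313 on chromosome 7. Saa1 stood at 13.9, 1.5 and 13.6 TPM in A10KO and 13.1, 12.97 and 15.1 in WT, Saa2 at 14.8, 0.68 and 12.4 and 17.6, 13.5 and 13.02, and Saa3 at 7.96, 1.1 and 7.93 and 10.5, 5.45 and 9.44. Replicate 13 was the lowest of the 6 libraries for each, and replicates 1 and 14 stood close to each other and to WT. Saa1 and Saa2 share 47.3% and 46.6% of their 31-base words with other genes, so reads could be split between them. The bases before their first annotated base, which hold the proximal promoters, are printed because these neighbours were low together (RefSeq, GRCm38.p6, 5′ to 3′ on the strand of the gene). They are chr7:46742981-46743230 on the minus strand for Saa1, chr7:46751583-46751789 on the plus strand for Saa2 and chr7:46715701-46715926 on the minus strand for Saa3. Capitals mark matches to TTGCNNAA, a core of sites bound by C/EBP factors, on either strand.
Saa1: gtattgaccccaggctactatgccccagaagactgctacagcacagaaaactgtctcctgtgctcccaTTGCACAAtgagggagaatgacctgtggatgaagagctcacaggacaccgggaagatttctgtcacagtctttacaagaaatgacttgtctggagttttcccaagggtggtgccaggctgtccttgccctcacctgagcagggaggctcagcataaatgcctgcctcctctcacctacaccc
Saa2: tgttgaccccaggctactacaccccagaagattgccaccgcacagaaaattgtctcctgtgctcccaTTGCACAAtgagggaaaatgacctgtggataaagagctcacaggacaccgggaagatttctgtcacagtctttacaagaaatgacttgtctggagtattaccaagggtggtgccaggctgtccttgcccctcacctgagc
Saa3: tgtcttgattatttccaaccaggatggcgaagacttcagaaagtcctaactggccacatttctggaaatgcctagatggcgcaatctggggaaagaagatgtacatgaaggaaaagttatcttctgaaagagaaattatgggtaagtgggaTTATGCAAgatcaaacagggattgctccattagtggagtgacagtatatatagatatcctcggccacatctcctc
Each of the 3 sequences held 1 match, and 9.55% of all 27025 promoters in the RefSeq table held at least 1 over 250 bases. Over 250 bases, the Saa1 and Saa2 sequences were 94.8% identical and those of Saa1 and Saa3 52.2%. A match is only a description of the letters.

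Genes higher in A10KO replicate 14 included some listed at or near 0 in the other 5 libraries. Ntrk2, which encodes the neurotrophin receptor TrkB (ENSMUSG00000055254, chromosome 13, 58806569 to 59133970), stood at 0, 0 and 23.1 TPM in A10KO and was listed at 0 in all WT libraries. Sorcs1, a sorting receptor gene of neurons, was at 0, 0.02 and 17.5 TPM, also with 0 in WT. Trpv6, a calcium channel gene, was at 0.11, 0.02 and 41.97 TPM against 0.04, 0 and 0 in WT. For these 3 genes replicate 14 alone was above 1 TPM. Dmd, the dystrophin gene, was at 1.02, 1.1 and 25.8 TPM against 1.42, 1.51 and 0.45, Fchsd2, a membrane-bending protein gene, at 5.78, 5.31 and 53.4 against 3.85, 5.87 and 4.67, and Fndc3a, a fibronectin type III domain gene, at 5.11, 12.3 and 56.3 against 4.52, 6.2 and 4.11. Col14a1, a fibril-associated collagen gene, was at 1.46, 0.12 and 9.81 TPM against 2.15, 1.98 and 1.73. Replicate 14 was again above all 5 other libraries.

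Promoters of Ntrk2 and Gabrb1 are shown as an example of each direction, a gene listed at 0 in all but 1 library and a gene far lower in 1 library than in the rest (RefSeq, GRCm38.p6, plus strand). They are chr13:58806319-58806568 and chr5:71657671-71657920, and capitals mark CG pairs, the usual sites of DNA methylation.
Ntrk2: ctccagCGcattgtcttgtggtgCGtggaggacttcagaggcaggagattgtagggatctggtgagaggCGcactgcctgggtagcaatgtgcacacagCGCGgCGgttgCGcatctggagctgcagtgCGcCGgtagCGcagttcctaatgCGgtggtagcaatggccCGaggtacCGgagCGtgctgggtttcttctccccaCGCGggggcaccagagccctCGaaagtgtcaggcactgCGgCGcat
Gabrb1: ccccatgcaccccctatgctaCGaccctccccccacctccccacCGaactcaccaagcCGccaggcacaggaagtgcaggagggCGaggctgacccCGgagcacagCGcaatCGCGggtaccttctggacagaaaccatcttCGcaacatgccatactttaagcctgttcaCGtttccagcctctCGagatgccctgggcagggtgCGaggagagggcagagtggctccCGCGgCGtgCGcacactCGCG
Ntrk2 held 19 CG pairs and Gabrb1 18, with ratios of observed to expected CG of 0.79 and 0.71. Methylation was not measured in these samples.

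In Aldoc and Tmsb4x, replicate 14 was the A10KO library within the WT range. Aldoc, the gene of a brain aldolase of glycolysis, stood at 0.90, 0.78 and 18.1 TPM in A10KO and 10.3, 22.3 and 14.1 in WT. Tmsb4x, an actin-binding peptide gene on the X chromosome, was at 0.44, 1.0 and 9.0 TPM against 8.81, 9.88 and 11.96. Replicates 1 and 13 were below every WT library in both. Rhox2g, a reproductive homeobox gene, was at 0, 0 and 43.2 TPM against 15.9, 15.9 and 16.9, and Mei4, a meiotic gene, at 1.3, 6.28 and 46.8 against 19.9, 18.9 and 19.02. In these, replicate 14 was above and the other A10KO libraries were below the WT range. Rhox2g shares 65.75% of its 31-base words with other genes, so its reads are hard to place. In the next genes replicate 14 was above all other libraries, and replicates 1 and 13 were at or near the lower WT values. Arhgap4, a GTPase-activating protein gene, was at 0.56, 0.19 and 48.5 TPM against 8.47, 0.79 and 0.22, and overlaps L1cam and Naa10. Slc22a14, a transporter gene, was at 0, 0.11 and 34.98 TPM against 0, 4.52 and 0 and overlaps 4 other genes with at least 1 TPM.

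The largest difference in this set, mt-Nd4l, is uncertain. This gene of complex I was at 0, 0 and 238 TPM in A10KO and was listed at 0 in all WT libraries. It overlaps mt-Nd4, which stood at 3077, 4205 and 2734 TPM in A10KO and 2362, 2055 and 2237 in WT, and 98.9% of its 31-base words occur in other transcripts. Of the 43 genes, 28 were protein coding, and in 11 both other A10KO libraries were listed at 0. On the X chromosome lay 6 of the 43, as did 13 of all 235 members and 308 of the 10067 genes considered.

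Genes lower in A10KO replicate 14 were fewest, and in several the other A10KO libraries were above WT. Il31ra, a cytokine receptor gene, stood at 112, 129 and 25.5 TPM in A10KO and 204, 261 and 38.1 in WT. Agbl4, which encodes an enzyme that removes glutamates from tubulin, was at 84.01, 73.4 and 16.6 TPM against 14.2, 39.9 and 21.98. Gstk1, a glutathione transferase gene, was at 49.9, 18.4 and 1.94 TPM against 7.28, 7.87 and 5.08. For Agbl4 and Gstk1, replicates 1 and 13 were above every WT library. Htra3, a secreted protease gene, was at 29.8, 15.3 and 1.34 TPM against 5.02, 8.54 and 6.66, Cabp7, a calcium-binding protein gene, at 36.1, 12.4 and 0.87 against 7.47, 10.9 and 8.71, and Capn6, a calpain-like gene, at 9.83, 17.8 and 0.35 against 6.4, 8.76 and 6.38. Lsamp, a neural adhesion protein gene, was at 6.08, 21.7 and 0 TPM against 6.01, 7.68 and 3.97. In these 4 as well, replicate 13 and, except for Lsamp, replicate 1 were above the WT range while replicate 14 was below it. Of the 18 genes, 15 were protein coding, replicate 14 was below the WT range in 13, and WT replicate 2 was the highest WT library in 14.

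In 8 genes each A10KO library was at least 4-fold from each other. Mast4, a microtubule-associated kinase gene, ran from 2.19 TPM in replicate 1 through 72.7 in replicate 14 to 365 in replicate 13, with WT at 52.2, 164 and 57.4. Cacna2d1, an auxiliary calcium channel subunit gene, ran in the same order, from 0.22 through 11.8 to 179 TPM, with WT at 2.42, 32.5 and 6.1. Pnpla3, a lipid droplet enzyme gene, did so too, from 0.20 through 12.2 to 71.6, with WT at 45.2, 10.4 and 67.5. These genes also varied among the WT libraries by more than 3-fold. Emilin1, an elastic-fibre protein gene, ran the other way, from 0.54 TPM in replicate 14 through 10.6 in replicate 13 to 60.5 in replicate 1, with WT at 22.7, 24.3 and 19. The other 4 were Gm9531, Gm26083, Gm26316 and Tmem181c-ps, which are pseudogenes or small RNAs.

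**Figure D2:**
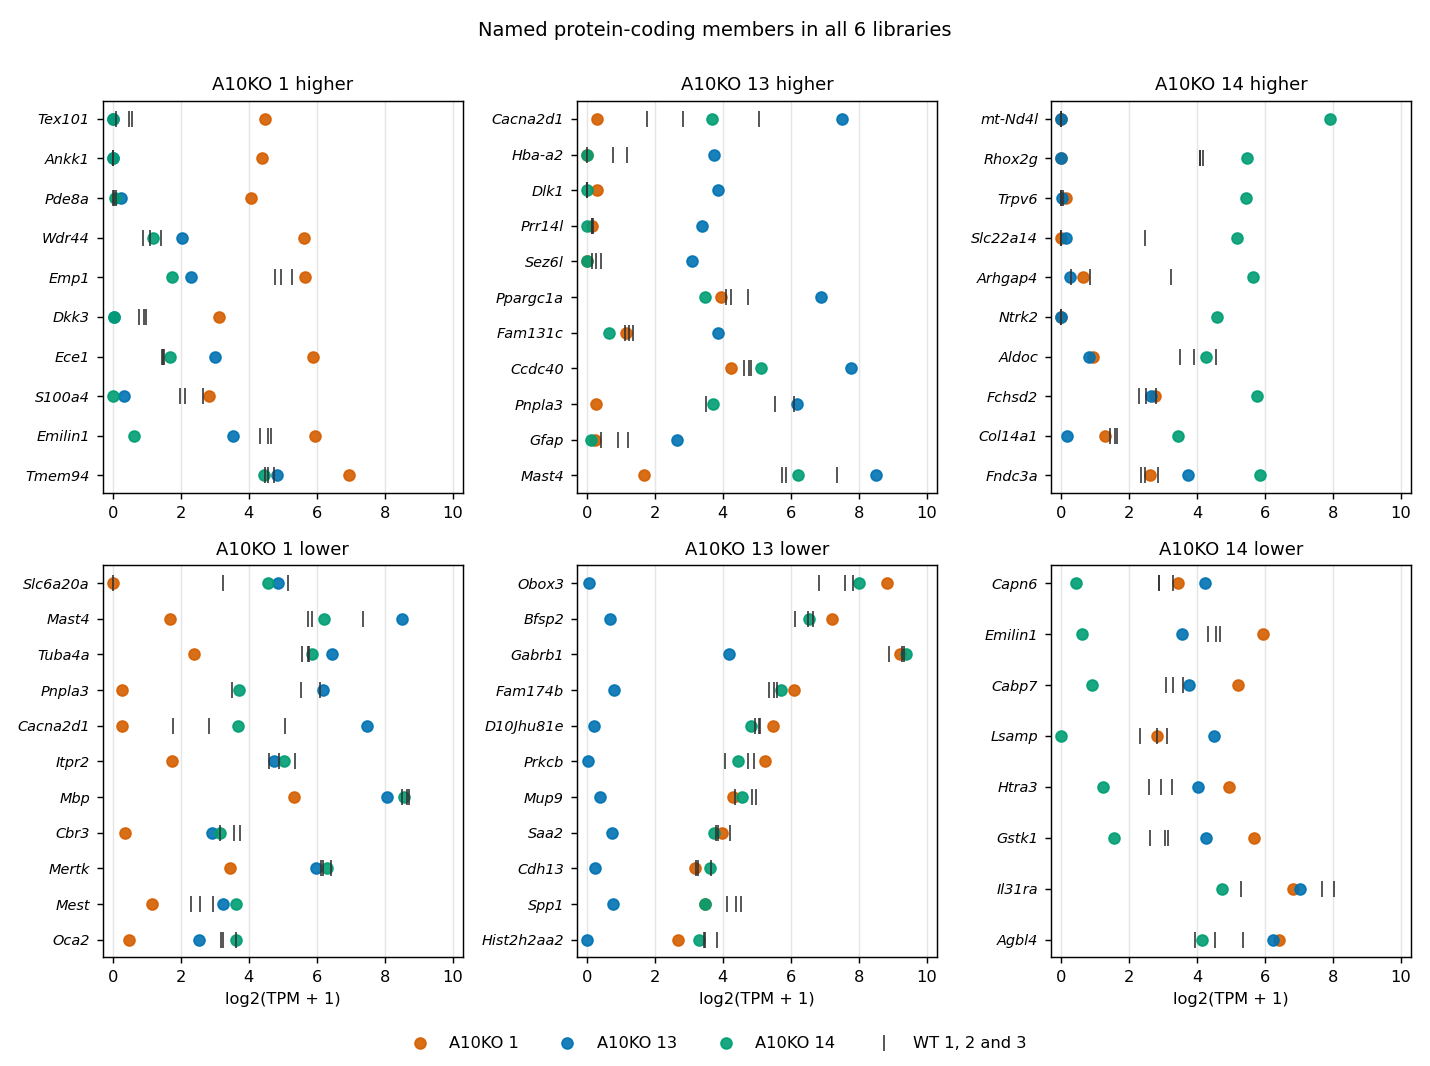
Level of named protein-coding members on log2(TPM + 1), horizontal axis, in panels by the A10KO library that stands apart and by direction (up to 11 genes a panel, largest difference on top). Circles are the A10KO libraries and black ticks WT replicates 1, 2 and 3. In many rows the ticks sit near the 2 A10KO circles that lie together, and in Emp1 and Aldoc they sit nearer to the single circle.

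The odd library's place relative to WT is given as a description, since a library chosen for its distance from the other A10KO libraries will often also lie away from a further reference. Of the 243 placements, the odd library was above the WT range in 125, below it in 81 and within it in 37. It was farther from the WT median than both other A10KO libraries in 195, nearer than both in 37 and neither in 11. The outside count of 206 became 220, 216 and 210 when WT replicate 1, 2 or 3 was left out of the range. Leaving a library out cannot widen the range, so this count could not fall. Replicate 13 was farther from the WT median than the others for 40 of 44 genes upward and 50 of 58 downward. Replicate 1 was so for 39 of 47 upward and 22 of 33 downward. Replicate 14 was so for 36 of 43 upward and 8 of 18 downward. Of the 235 members, 41 also met the rule among the WT libraries, as did 154 of the 9832 genes considered in WT (1.57%).

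**Figure D3:**
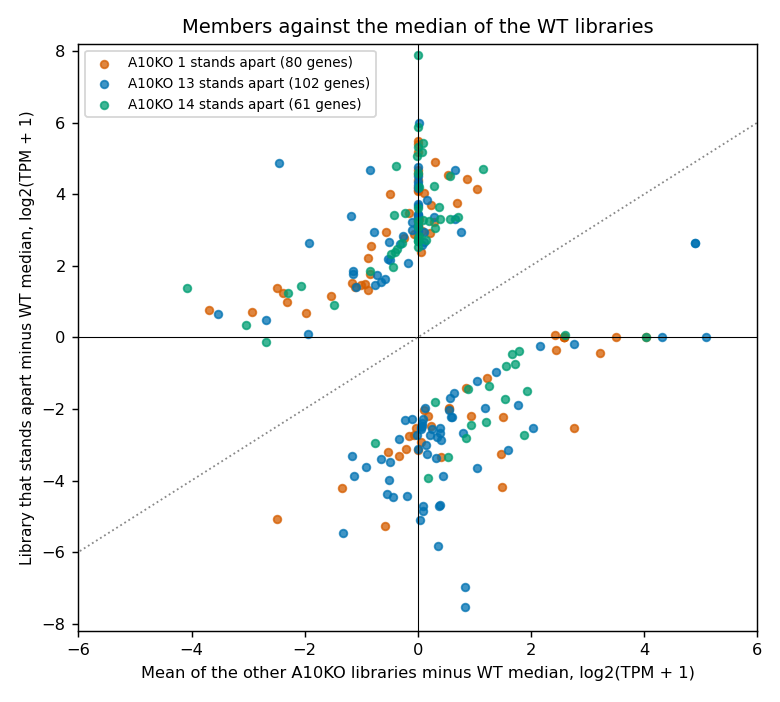
Each point is a member in the library where it stands apart. The horizontal axis is the mean of the other A10KO libraries and the vertical axis the library that stands apart, each less the WT median on log2(TPM + 1); the dotted line marks equality. In 195 of the 243 placements the library that stands apart lay farther from the WT median than both others.

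Members differed from the genes considered in kind, length and level. Protein-coding genes made up 63.8% of the members and 94.9% of the genes considered. Among the members were 34 pseudogenes, 20 small RNAs and 30 long noncoding or other genes, and 1 gene was not matched to the annotation. Exons added up to under 300 bases in 19.6% of the members and 0.775% of the genes considered, and the median exon length was 2093 against 4392 bases. The median of the highest A10KO level was 18.5 against 26.9 TPM, and the median WT range 0.50 against 0.25 on the log2 scale. Of the 154 genes that met the same rule in WT, 54 were protein coding and 59 had exons under 300 bases. Noncoding kinds and short exons are therefore not particular to the A10KO members. Of 234 members with a transcript in the annotation, 74 shared over 50% of their 31-base words with other genes, 20 of them among the 150 protein-coding members. A further gene with at least 1 TPM overlapped 62 members. Whether counting used strand is not stated, so reads of overlapping genes cannot be told apart.

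Some noncoding members varied among WT libraries as well. Pgk1-rs7, a copy of the glycolysis gene Pgk1, stood at 3.39, 465 and 0.97 TPM in A10KO and 2.29, 57.2 and 15.02 in WT. Rmrp, the RNA of an RNA-processing enzyme, was at 1.79, 13.01 and 18.8 TPM against 122, 92.5 and 10.3. Snora73b, a small nucleolar RNA, was at 24.8, 0 and 0 TPM against 0, 0 and 15.3. The WT libraries were far apart in each of these genes. Each shares 100% of its 31-base words with other genes, so their reads are hard to place. Copies of the spliceosomal U2 RNA on chromosome 11 (101627366 to 101658428), 4 with Rnu2-10 among them, were listed with identical values, 0, 3.9 and 6.32 TPM in A10KO and 11.3, 0 and 0 in WT, and count as 4 members although their reads are shared.

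Proximal promoters of protein-coding members were less often rich in CG pairs than those of the genes considered. A promoter, here the 250 bases before the first RefSeq start, was called rich at an observed to expected ratio of at least 0.6. Of 150 protein-coding members, 120 were matched to the table (80%), and 54 of these were rich (45%), against 5807 of 7761 among the protein-coding genes considered (74.8%). The median ratio was 0.52 against 0.77. By set, 7 of 23 promoters were rich for genes higher in replicate 1 (30.4%), 10 of 16 for those lower in it (62.5%), 12 of 20 for those higher in replicate 13 (60%) and 15 of 32 for those lower in it (46.9%). For the sets of replicate 14, and for the protein-coding genes that met the same rule in WT (68.5% matched), fewer than 80% were matched, so their shares are not given. Whether low CG content is particular to the A10KO members was therefore not tested. The TTGCNNAA core was in 8 of the 32 promoters of genes lower in replicate 13 (25%) and in 6.98% of those considered. Of these 8, 3 were the Saa genes. The core was in 12.5% of the promoters of all protein-coding members. Its share was 13.04% for genes higher in replicate 1, 6.25% for those lower in it and 10% for those higher in replicate 13. Other motifs were counted and are not given. Whether the core is particular to the genes lower in replicate 13, or to the A10KO members, was not tested.

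Median RNA differences by chromosome were wider among the A10KO libraries than among the WT libraries. These are RNA levels only, and chromosome content was not measured. For each gene with 5 TPM or more on average (9412 genes), a library's difference from the other libraries of its group was taken, and the library's own median was subtracted. Chromosome medians ran from -0.42 on chromosome 12 to 0.31 on chromosome 17 in A10KO replicate 1. In replicate 13 they ran from -0.32 on chromosome 7 to 0.29 on chromosome 12, and in replicate 14 from -0.21 on chromosome 9 to 0.21 on chromosome 15. The full ranges were 0.73, 0.60 and 0.42, against 0.068, 0.099 and 0.045 in WT replicates 1, 2 and 3. A median beyond 0.2 in either direction occurred on 8, 5 and 2 of 20 chromosomes in A10KO and on 0 in each WT library. Chromosome 2 was at -0.39 in replicate 1, 0.23 in replicate 13 and 0.15 in replicate 14. Chromosome 13 was at 0.11, -0.27 and 0.14.

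**Figure D4:**
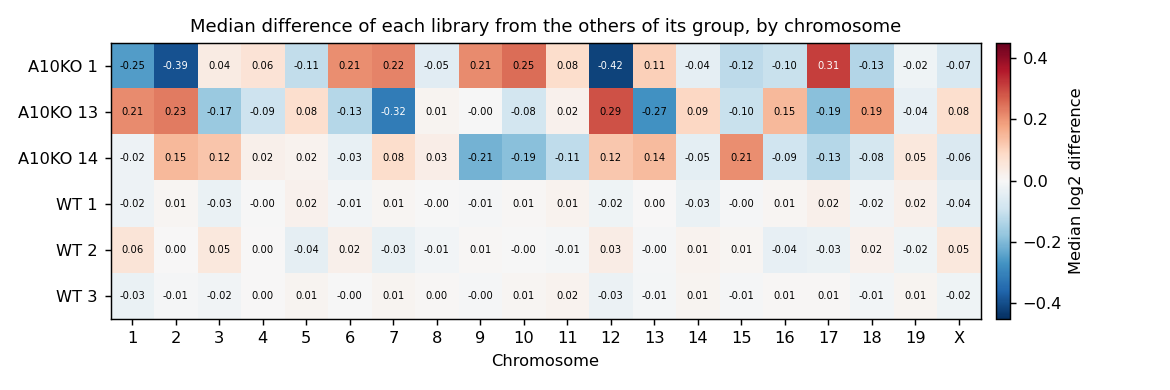
Median log2(TPM + 1) difference of each library (rows) from the mean of the other libraries of its group, by chromosome (columns), less the library's median over all genes; colour and printed value give the same quantity. The 3 A10KO rows hold values from -0.42 to 0.31, and the WT rows run from -0.04 to 0.06.

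Members were spread over all 19 autosomes and the X chromosome. Chromosome 7 held 28 members of 716 genes considered (3.91%) and chromosome 6 held 24 of 560 (4.29%). The X chromosome held 13 of 308 (4.22%). The share over all genes was 2.33%. Of the 58 genes lower in replicate 13, 12 lay on chromosome 7, as did 716 of the 10067 genes considered. This chromosome had the lowest median in that library. Among the 12 were Obox3, Prkcb, Agbl1, Fam174b, Hpx and the Saa genes, which are neighbours. Of genes lower in replicate 13, 62.1% lay on chromosomes whose median was below 0 in that library, as did 50.2% of the genes considered. For genes lower in replicates 1 and 14 the shares were 50% against 48.8% and 66.7% against 46.4%. For genes higher in replicates 1, 13 and 14 the shares on chromosomes with a median above 0 were 59.6% against 51.2%, 54.5% against 49.8% and 42.9% against 53.7%. The part of these shifts in chromosome medians of RNA in the members' differences was not tested.

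Of the 235 members, 15 had a neighbouring member in the same library and direction, and the number to be met by position alone was not computed. Counting only genes considered, they made 9 pairs of adjacent genes. Besides the Saa, Spp1 and Sparcl1 and U2 groups, these included Mup9 and Gm21320 on chromosome 4, lower in replicate 13, and Dynlt1-ps1 and Emp1 on chromosome 6, higher in replicate 1. Mup9 shares 94.9% of its 31-base words with other genes, and Gm21320 and Dynlt1-ps1 share 100%, so their values may rest on reads from elsewhere. Around the targeted gene Anxa10 (chromosome 8, 62057042 to 62123150), 84 genes are annotated within 3 Mb on either side, 10 of them reached 1 TPM, 9 were considered and 0 were members. Nek1 lies in this window, with its centre 1028 kb from that of Anxa10. Its neighbour Hpf1, a cofactor gene of ADP-ribosylation, stood at 49.2, 52.5 and 53.97 TPM in A10KO and 55.7, 57.8 and 56.2 in WT. Clcn3, a chloride transporter gene, stood at 7.9, 13.2 and 7.09 TPM and 8.17, 15.4 and 8.51, also highest in replicate 13 among the A10KO libraries.

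Lists of functionally related genes were compared in the same way, a library minus the other libraries of its group, over list genes that reached 1 TPM. The median over all 13503 such genes was -0.10, 0.08 and 0.00 in A10KO replicates 1, 13 and 14, and became -0.15, 0.18 and -0.05 with mitochondrial transcripts removed, so each list's median is given less that of all genes. These are medians of log2 differences, not levels, and the lists were written with earlier results known. As a background for the counts, 25.5%, 44.0% and 30.5% of all these genes were highest in replicates 1, 13 and 14, and 43.0%, 30.5% and 26.5% were lowest there. Values under quantile normalization, which forces all libraries to 1 distribution, are given where they differ by over 1.5 times.

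Mitochondrially encoded transcripts were highest in replicate 13 for 12 of 13 genes, with medians of -0.22, 0.68 and -0.56 against -0.12 to 0.08 in WT. The setting that removed these transcripts holds no values for them, so it says nothing about this order. The transcript mt-Nd1, of complex I, stood at 6498, 12243 and 5722 TPM in A10KO and 4839, 3417 and 4696 in WT, and mt-Atp8, of the ATP synthase, at 32967, 74021 and 33595 and 27693, 27759.6 and 26556. Nuclear genes of oxidative phosphorylation did not show the same order, with medians of 0.30, -0.10 and -0.14 over 37 genes. Quantile normalization gave 0.15, 0.12 and -0.23. Ribosomal protein genes were lowest in replicate 13 for 64 of 80, with medians of 0.19, -0.55 and 0.33 against -0.16 to 0.10 in WT, and of 0.04, -0.21 and 0.23 under quantile normalization. Of the 80 genes, 0 were members.

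Cholesterol synthesis genes separated replicate 14 from the others. Of 24 genes, 21 were highest in replicate 14 and 14 lowest in replicate 13, with medians of -0.13, -0.57 and 0.59 against -0.09 to 0.03 in WT, and 0 were members. Fdps, which makes farnesyl diphosphate, stood at 148, 55.4 and 226 TPM in A10KO and 197, 201 and 192 in WT. Sqle, squalene epoxidase, was at 42.99, 37.9 and 78.98 TPM against 61.5, 79.7 and 56.01, and Srebf2, the regulator of this pathway, at 51.3, 41.3 and 91.02 against 72.8, 88.3 and 68.9. Replicates 1 and 13 were below the WT range in all 3 genes, and replicate 14 was above it for Fdps and Srebf2.

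S100 and annexin genes separated replicate 1. Of 16 genes, 14 were highest in replicate 1, with medians of 0.68, -0.42 and -0.09 against -0.07 to 0.07 in WT, and of -0.15 in replicate 14 under quantile normalization. S100b stood at 98.3, 59.9 and 36.9 TPM in A10KO and 39.6, 47.5 and 38.5 in WT, and Anxa2 at 281, 171 and 206 and 281, 384 and 311. For S100b replicate 1 lay above all other libraries, whereas for Anxa2 it was the A10KO library nearest to WT. S100a4 was the only member among them. Among the lists plotted, p53 targets were also higher in replicate 1 than in replicate 14, with medians of 0.37, -0.01 and -0.34 over 22 genes, and 0.05 for replicate 13 under quantile normalization.

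Most cadherin genes were highest in replicate 13, and the median over glial genes was lowest in replicate 1. Of 8 cadherin and protocadherin genes, 7 were highest in replicate 13, with medians of -0.45, 0.82 and -0.41. Cdh2, N-cadherin, stood at 22.9, 47.8 and 26.1 TPM in A10KO and 35.2, 39.9 and 35.04 in WT, whereas Cdh13, a member, was lowest in replicate 13. Schwann and glial markers had medians of -0.89, 0.54 and 0.24 over 8 of 11 genes. Of these, 5 were lowest in replicate 1 (62.5%, against 43.0% of all genes), but Fabp7 and S100b were highest there. Their summed level was 189.3 TPM in replicate 1 and 436.1 and 475.9 in replicates 13 and 14, against 479.8 to 514.6 in WT, and Gfra3 and Mog were listed at 0 throughout. Without the members Mbp and Gfap the sums were 149.4, 160.9 and 99.9 TPM, against 90.8 to 113.1 in WT, so that Mbp made the sum low in replicate 1. Pmp22, a myelin protein gene, was at 17.6, 63.8 and 21.1 TPM in A10KO and 14.9, 17.1 and 15.1 in WT.

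Among marker lists of other cell types, the erythroid and fibroblast lists differed among the A10KO libraries mainly through few genes. Of 9 erythroid markers, 2 reached 1 TPM, and the summed level was 22.6 TPM in replicate 13 against 0.29 to 3.32 in the other libraries, nearly all of it Hba-a1 and Hba-a2. Of 13 fibroblast markers, 5 reached 1 TPM, and the sum was 123 TPM in replicate 13 against 50.2 to 66.4 elsewhere. Pdpn, a mucin-like membrane protein gene, made up 115 TPM of this, Dpt and Lum were listed at 0 throughout, and Dcn and Col3a1 were below 0.2 TPM. Endothelial markers summed to 158 to 213 TPM over the 6 libraries. Leukocyte markers summed to 3.66 to 8.98 TPM with 7 listed at 0 throughout, and keratinocyte and epithelial markers to 1.09 to 3.29. Of 12 muscle and adipocyte markers, 3 reached 1 TPM. That list summed to 35.4, 21.6 and 13.3 TPM in A10KO and 11.25 to 28.25 in WT. The part of other cells in the differences between libraries was not tested.

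Of 33 primary cilium genes, 22 were lowest in replicate 1 (66.7%, against 43.0% of all genes) and 18 highest in replicate 13 (54.5%, against 44.0%), with medians of -0.24, 0.17 and 0.00 against -0.05 to 0.07 in WT, and 0.09 for replicate 14 under quantile normalization. None of the 33 was a member. Wdpcp, a member named above as a gene for ciliogenesis, is not in this list and was lowest in replicate 13. Of 9 NEK kinase genes, 5 were highest in replicate 13 (55.6%, near the 44.0% of all genes), among them Nek4, at 2.54, 6.47 and 3.7 TPM in A10KO and 3.8, 5.05 and 4.12 in WT, and Nek6, a mitotic kinase gene, at 44, 67.8 and 46.6 and 52.1, 45.6 and 46.1. In Nek8, a cilium kinase gene, replicate 1 was the highest, at 13.4, 7.26 and 7.02 TPM against 8.33, 7.55 and 7.92.

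Melanocyte identity genes were highest in replicate 14 for 14 of 24, with medians of -0.02, -0.13 and 0.28 against -0.02 to 0.04 in WT. Quantile normalization gave -0.09, -0.0025 and 0.11, with replicates 1 and 13 in the other order, and Oca2 was the only member. Tyr, the tyrosinase gene, stood at 13.4, 25.02 and 43.8 TPM in A10KO and 22.1, 24.2 and 23.3 in WT, with replicate 1 below and replicate 14 above the WT range. Glycolysis and hypoxia genes had medians of 0.52, -0.25 and -0.18 over 37 genes, a spread of 0.77 that was smaller than the 1.22 among the WT libraries, where WT replicate 2 was at 0.75. Quantile normalization gave 0.48, -0.10 and -0.30, with replicates 13 and 14 in the other order. Receptor tyrosine kinases and their ligands had 3 members of 33, each in another library: Mertk low in replicate 1, Epha5 low in replicate 13 and Ntrk2 high in replicate 14.

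**Figure D5:**
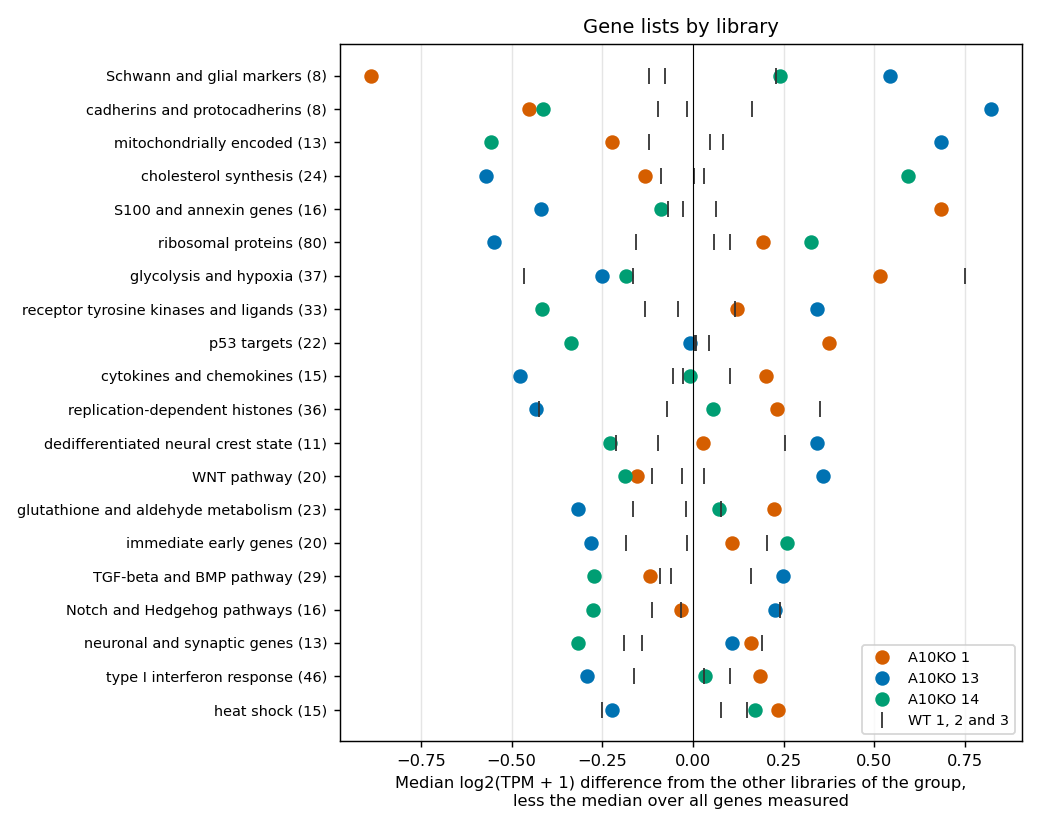
Median log2(TPM + 1) difference of each library from the other libraries of its group, less the median over all genes (horizontal axis), for the 20 gene lists with at least 8 genes measured and the widest A10KO spread; the number of genes is in brackets. Circles are A10KO libraries and black ticks WT libraries. The lists were picked for their A10KO spread, so its excess over the WT spread is no result; in glycolysis and hypoxia the WT ticks, with a spread of 1.22, lie wider than the A10KO circles.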

How the data were processed

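Per the submitters' processing notes, which name fastp, HISAT and RSEM without versions and the genome build GRCm38.p5, the authors trimmed, aligned and quantified the reads. They deposited TPM values per gene for each library and in 1 table of the series, and the 6 library tables were identical to its columns. Groups were taken from the labels, while strand settings and clone identity are not stated.

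Genes were tied to GENCODE M21 by Ensembl identifier (51633 of 51912). Differences were computed on log2(TPM + 1) with python 3.11.15, numpy 2.4.6 and pandas 2.3.3, and drawn with matplotlib 3.10.9. No test was made, and the computation was tested on simulated data. Shared sequence was the share of a gene's 31-base words found in another gene's transcripts. Promoters came from RefSeq GRCm38.p6.

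The members and lists were chosen with earlier results of these data known. Named members were the 6 largest differences and the 3 highest levels in each set, up to 5 members of each list, the 3 genes on either side of the limit, and neighbours, leaving out predicted genes and pseudogenes. Acsbg1, Agbl1, App, Cyba, Dmd, Gm26083, Gm26316, Gm9531, Hpx, Hyal1, Kcns3, Mei4, Mmel1, Nfatc2, Pgk1-rs7, Rmrp, Sorcs1, Tmem181c-ps, Tmsb4x and Xylt1, and the genes shown as examples of a list, were chosen after their values were seen. Alternatives covered the pseudocount, the minimum level, the fold, 4 scalings, the WT libraries that set the range and, chosen after seeing the data, the kinds of gene counted. A gene that the rule would name is not reported here.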

Additional observations from a re-analysis of the deposited data

How the results depend on the processing

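Of 126 alternative values of the counts, 85 were within 1.5 times the reported one. Counts below follow the order of genes high in A10KO replicates 1, 13 and 14 and low in 1, 13 and 14. A 2-fold limit gave 918 members, 138, 314, 116, 123, 204 and 105 in these sets, with 736 protein-coding members and 146 protein-coding genes by the same rule in WT. An 8-fold limit gave 98 members, 27, 19, 20, 8, 22 and 4 in these sets, with 50 protein coding and 28 in WT. With a pseudocount of 5 there were 79 members, 18, 16, 17, 8, 21 and 0 in these sets, with 48 protein coding and 24 in WT. With a pseudocount of 0.1 the sets low in replicates 1 and 14 had 54 and 38 genes. A minimum of 10 TPM left 31 genes high in replicate 1 and 27 high in replicate 13, and a minimum of 1 TPM or no minimum gave 69 high in replicate 13.

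Counting protein-coding genes only, a choice made after seeing the data, as was the next, left 150 members, with 28, 25 and 28 genes high in replicates 1, 13 and 14 and 19 low in replicate 1. Leaving out members that share over 50% of their 31-base words left 29 genes high in replicate 13, 20 low in replicate 1 and 34 low in replicate 13. Scaling by median of ratios, by trimmed mean or by quantiles gave 247 members each, with 227, 227 and 221 of them among the reported 235, and removal of mitochondrial transcripts gave 266, with 229 shared. The cause of these differences was not tested. Leaving out each WT replicate gave 210 to 220 placements outside the WT range, a count that could not fall by this change. Leaving out an A10KO library gives no value, since the rule needs all 3. No paired analysis was possible because the groups share only replicate number 1 and the results come from no test. Depth is unknown, so counting error cannot be separated from other differences, and each side of a difference is 1 library.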
